A study of Mus musculus with 16 samples.

Results

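The antibody variable segments expressed in the terminal ileum, 114 heavy-chain Ighv and 100 kappa-chain Igkv segments, are described here, 214 of the 23299 genes in the deposited table. They were chosen by name and by level, as genes beginning with Ighv or Igkv whose summed transcripts reached 1 RPKM or more in 2 or more of 14 columns. RPKM is a read count per transcript, corrected for transcript length and for the library. All 214 listed segments passed, and the weakest by their second-highest column were Igkv4-51 at an RPKM of 1.26, Igkv5-37 at 1.41, Ighv8-11 at 1.42 and Ighv12-3 at 1.44, and no segment listed in the table fell below the threshold. Segments that are annotated in the mouse genome but not listed in the table were not analysed here. Since the level chose the members, their presence is a description and not a result.

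Messenger RNA isolated from total RNA of the terminal ileum was read on an Ion Proton sequencer for C57BL/6 wild-type littermates (WT, Tas1r3+/+) and mice homozygous for the Tas1r3tm1Csz null allele (KO, Tas1r3-/-), which lack this sweet and umami receptor subunit in every cell and had been backcrossed to C57BL/6. The mice were 5 to 6 weeks old at assignment and received for 10 weeks either normal diet with plain water (ND) or a Western diet (WD) of 60% high-fat pellets with 30% sucrose solution. Each of the groups WT-ND, KO-ND, WT-WD and KO-WD has 2 male columns (M1, M2) and 2 female columns (F1, F2), 16 in all. In every segment the female KO-ND columns equalled weighted means of the male KO-ND columns, so they were left out. The female KO-WD columns were averaged to 1 value (F), because the second looks like a mean of the first and another library, and the text gives the values of the single columns, and of the library that the second implies (2 times the second minus the first), where they differ in what they show. This leaves 13 libraries, 4 WT-ND, 2 KO-ND (both male), 4 WT-WD and 3 KO-WD, with an implied depth of 7003815 to 12384387 reads. The labels do not tie a library to a single mouse, and the study describes individual mice, more of them per group than there are columns here.

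An antibody chain is built in each B cell by joining 1 variable (V) segment to small D and J segments (heavy chain) or to a J segment (kappa chain), and the joined exon is spliced to a constant region. The V segment supplies most of the antigen-binding surface, and the junction behind its last cysteine codon forms the third hypervariable loop. In the gut, plasma cells that secrete IgA carry very large amounts of this RNA. The V segments read from whole tissue therefore describe mainly the RNA of these cells. In bulk tissue, fewer plasma cells and less RNA per cell cannot be told apart.

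The germline sequences of the segments on which the results turn are shown first, so that the dominant and the private segments can be seen. Each line holds the last 280 coding bases, 5′ to 3′ on the coding strand, from GENCODE M21 on GRCm38, all within the V exon. Ighv7-3 (chr12:114153180-114153459, minus strand) had the highest mean share of the heavy-chain segments. Ighv10-1 (chr12:114479005-114479284, minus strand) and Igkv8-27 (chr6:70171809-70172088, minus strand) took large shares of a single female library. Capitals mark the bases from the last in-frame cysteine codon to the end.
Ighv7-3: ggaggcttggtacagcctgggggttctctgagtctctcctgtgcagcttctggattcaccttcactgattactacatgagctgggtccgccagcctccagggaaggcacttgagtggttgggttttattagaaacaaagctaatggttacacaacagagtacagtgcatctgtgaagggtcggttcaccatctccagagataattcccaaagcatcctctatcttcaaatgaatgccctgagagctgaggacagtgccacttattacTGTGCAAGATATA
Ighv10-1: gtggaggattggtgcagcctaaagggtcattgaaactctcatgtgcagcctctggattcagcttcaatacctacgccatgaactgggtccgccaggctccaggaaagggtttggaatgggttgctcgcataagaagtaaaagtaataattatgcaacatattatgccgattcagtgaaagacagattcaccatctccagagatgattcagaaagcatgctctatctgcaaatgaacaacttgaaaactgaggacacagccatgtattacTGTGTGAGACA
Igkv8-27: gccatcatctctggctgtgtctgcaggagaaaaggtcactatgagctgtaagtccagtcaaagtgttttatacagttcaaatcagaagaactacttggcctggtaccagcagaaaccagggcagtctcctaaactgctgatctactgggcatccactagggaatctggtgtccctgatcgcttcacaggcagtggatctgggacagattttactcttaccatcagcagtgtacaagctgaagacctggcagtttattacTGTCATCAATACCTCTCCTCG

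Igkv1-117 (chr6:68121548-68121827, plus strand) and Igkv1-110 (chr6:68270988-68271267, plus strand) were the leading kappa segments. Their last 280 bases differ at 9 positions, 3 of them behind the cysteine codon, and these positions are in capitals.
Igkv1-117: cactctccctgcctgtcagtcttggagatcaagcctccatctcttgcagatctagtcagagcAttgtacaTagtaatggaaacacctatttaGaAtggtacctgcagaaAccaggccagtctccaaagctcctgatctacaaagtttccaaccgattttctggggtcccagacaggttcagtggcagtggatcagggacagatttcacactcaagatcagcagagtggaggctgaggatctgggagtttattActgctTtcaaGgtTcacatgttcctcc
Igkv1-110: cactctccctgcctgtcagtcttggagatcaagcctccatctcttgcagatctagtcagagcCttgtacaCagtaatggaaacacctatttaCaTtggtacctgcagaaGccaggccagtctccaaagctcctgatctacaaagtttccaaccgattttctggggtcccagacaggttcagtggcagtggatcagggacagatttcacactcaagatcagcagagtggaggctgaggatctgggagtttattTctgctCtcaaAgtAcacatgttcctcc
Reads that cover none of the 9 positions cannot separate this pair, so their summed share is given after the single shares.

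Of the 114 Ighv segments, spread over chr12:113578504-116010093 and 14 families, 98 are annotated as functional V genes and 16 as pseudogenes. The 100 Igkv segments lie in chr6:67555497-70704177, form 18 families and comprise 91 functional genes and 9 pseudogenes. An RPKM of at least 1 was reached in every library by 62 Ighv and 55 Igkv segments and in some library of every group by 101 and 88. No segment reached it in a single group only. Pseudogenes took 1.42 to 3.41% of the summed Ighv RPKM of a library and 0.216 to 0.836% of the summed Igkv RPKM. Position in the locus and use were only weakly related across segments, which are not independent, with a Spearman rho between mean share and distance to the J segments of 0.07 for Ighv and -0.12 for Igkv. Close copies limit how reads were divided: 21 Ighv and 16 Igkv segments have another segment that matches at least 97% of the last 280 bases, and 2 Ighv segments match fully.

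Tas1r3 RPKM was 1.80 to 2.95 in the 4 WT-ND columns and 4.21 to 6.27 in the 4 WT-WD columns, and at most 0.00452 in any KO column. The summed RPKM of the columns used was 817011 to 819916 on ND and 542371 to 685274 on WD, so diet and column total cannot be told apart for levels. Shares within a locus and a library are not touched by it. Ileal enterocyte markers summed to an RPKM of 10983 to 18659 in WT-ND and 5797 to 8675 in KO-ND, without overlap. They summed to 4907 to 13358 in WT-WD and 1401 to 11351 in KO-WD. The part of this tissue make-up in the V levels was not tested. The female WT-ND library F1 stood apart in B cell markers (8 markers, summed RPKM up to 113 in WT-ND against 46.0 or less in the other groups). Cd79a, a part of the B cell receptor, was at 36.2 there against 3.50 to 5.91 in the other WT-ND libraries. The part of these B cells in the results was not tested.

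V segment RNA tracked antibody constant-region RNA. The summed Ighv RPKM ran from 910 in KO-WD F to 6711 in KO-ND M2, a 7.38-fold span, and summed Igkv RPKM from 1059 to 6812, in the same 2 libraries. Igha, the IgA constant region, made up 95.3 to 99.6% of heavy constant-region RPKM. As a description over the 13 libraries, log2 summed Ighv level and log2 summed heavy constant level had a Pearson r of 0.89 and a Spearman rho of 0.86, and r was 0.84 without the 2 libraries farthest from the median. For Igkv against Igkc, the kappa constant region, r was 0.93 and rho 0.80, with r = 0.89 without the 2 farthest. The summed Ighv and Igkv levels had an r of 0.96 and a rho of 0.96. The Ighv level and Jchain had an r of 0.69 and a rho of 0.67, with r = 0.50 without the 2 farthest. Within the 6 ND and the 7 WD libraries, r was 0.89 and 0.93 for the heavy chain and 0.96 and 0.92 for kappa. The ratio of the 2 was not constant. Summed Igkv per Igkc RPKM was 0.563 to 0.618 in WT-ND, 0.402 and 0.543 in KO-ND, 0.436 to 0.557 in WT-WD and 0.314 to 0.501 in KO-WD. Summed Ighv per heavy constant RPKM ran from 0.423 to 0.892, with overlap between the groups.

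**Figure D1:**
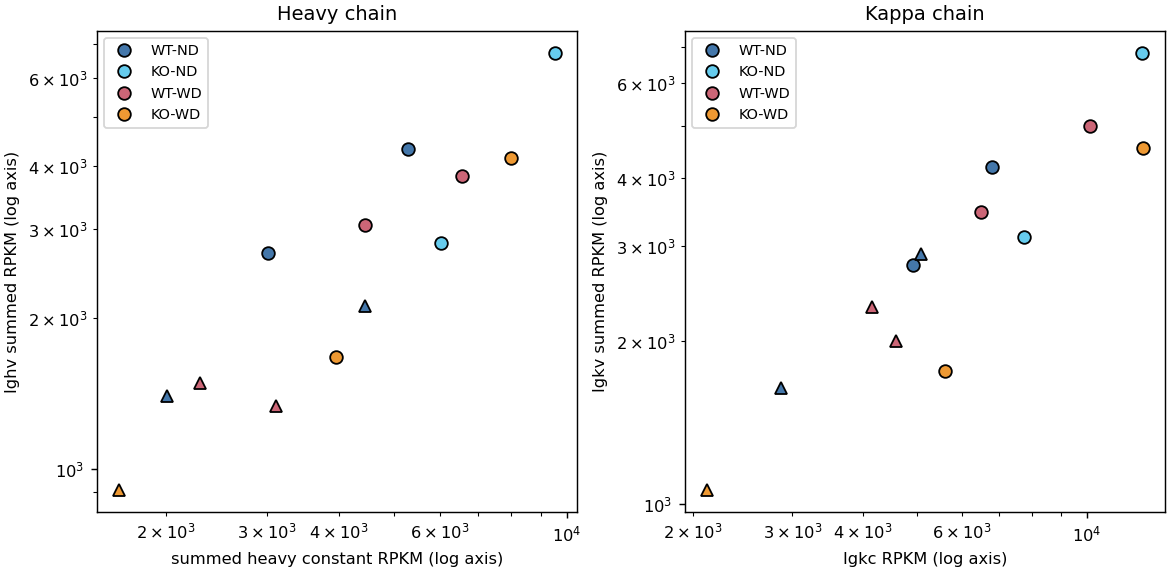
Summed V segment RPKM against constant-region RPKM for the heavy chain (left) and kappa chain (right) on log axes, 1 point per library (circles male, triangles female, colours the 4 groups). The lowest library in both panels is KO-WD F (Ighv 910, Igkv 1059) and the highest in summed V RPKM is KO-ND M2 (Ighv 6711, Igkv 6812).

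Summed level did not separate the groups. Summed Ighv RPKM was 2632 ± 1247 (SD, n = 4) in WT-ND, 4764 ± 2753 (n = 2) in KO-ND, 2425 ± 1214 (n = 4) in WT-WD and 2246 ± 1698 (n = 3) in KO-WD, and the libraries of every pair of groups compared overlapped. Summed Igkv RPKM was 2872 ± 1049, 4961 ± 2618, 3189 ± 1352 and 2452 ± 1840 in the same order, again with overlap. The female KO-WD columns had 859 and 960 for Ighv and 954 and 1165 for Igkv, the lowest sums of all under either reading, as would the implied library for both (1062 and 1377). On the scaled log2 scale the summed Ighv level differed by 0.33 ± 0.50 (SE) for WT-WD minus WT-ND and -0.84 ± 0.75 for KO-WD minus KO-ND. It differed by 1.02 ± 0.58 for KO-ND minus WT-ND and -0.15 ± 0.69 for KO-WD minus WT-WD. In the values as deposited, the WT-WD minus WT-ND difference was -0.14, so its sign depends on the scaling. The summed RPKM of 8 plasma cell markers overlapped likewise. It was 429 to 595 in WT-ND, 431 to 762 in KO-ND, 386 to 806 in WT-WD and 349 to 867 in KO-WD. Jchain, Xbp1 and Sdc1 had the highest median RPKM of them (308, 99.5 and 72.0). Sdc1 was highest in WT-ND F2, where Jchain was lowest. In WT-WD against WT-ND, log2 differences were negative for Sdc1, Xbp1 and Prdm1 (-0.54, -0.14 and -0.17). They were positive for Irf4, Tnfrsf17, Mzb1, Derl3 and Jchain (0.62, 0.42, 0.64, 1.17 and 1.66). The sum thus mixes markers that moved apart. Males and females lay apart in summed Ighv RPKM within WT-ND, at 2685 and 4329 against 1401 and 2112, and within WT-WD, at 3063 and 3819 against 1334 and 1484, and KO-ND is represented by males only.

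Each library was led by a few segments. The 8 Ighv segments with the highest mean share held 36.7% of the summed Ighv RPKM on average, and the 8 leading Igkv segments held 47.2% of the Igkv sum. Between 4 and 14 Ighv segments, with a median of 9, were enough to reach 50% of a library's Ighv sum, against 4 to 12 Igkv segments with a median of 6. At the other end, 42 Ighv and 41 Igkv segments never reached 1% of their locus. Only Ighv1-53 and Ighv6-3 among Ighv segments and Igkv1-117 among Igkv segments held at least 1% in all 13 libraries.

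**Figure D2:**
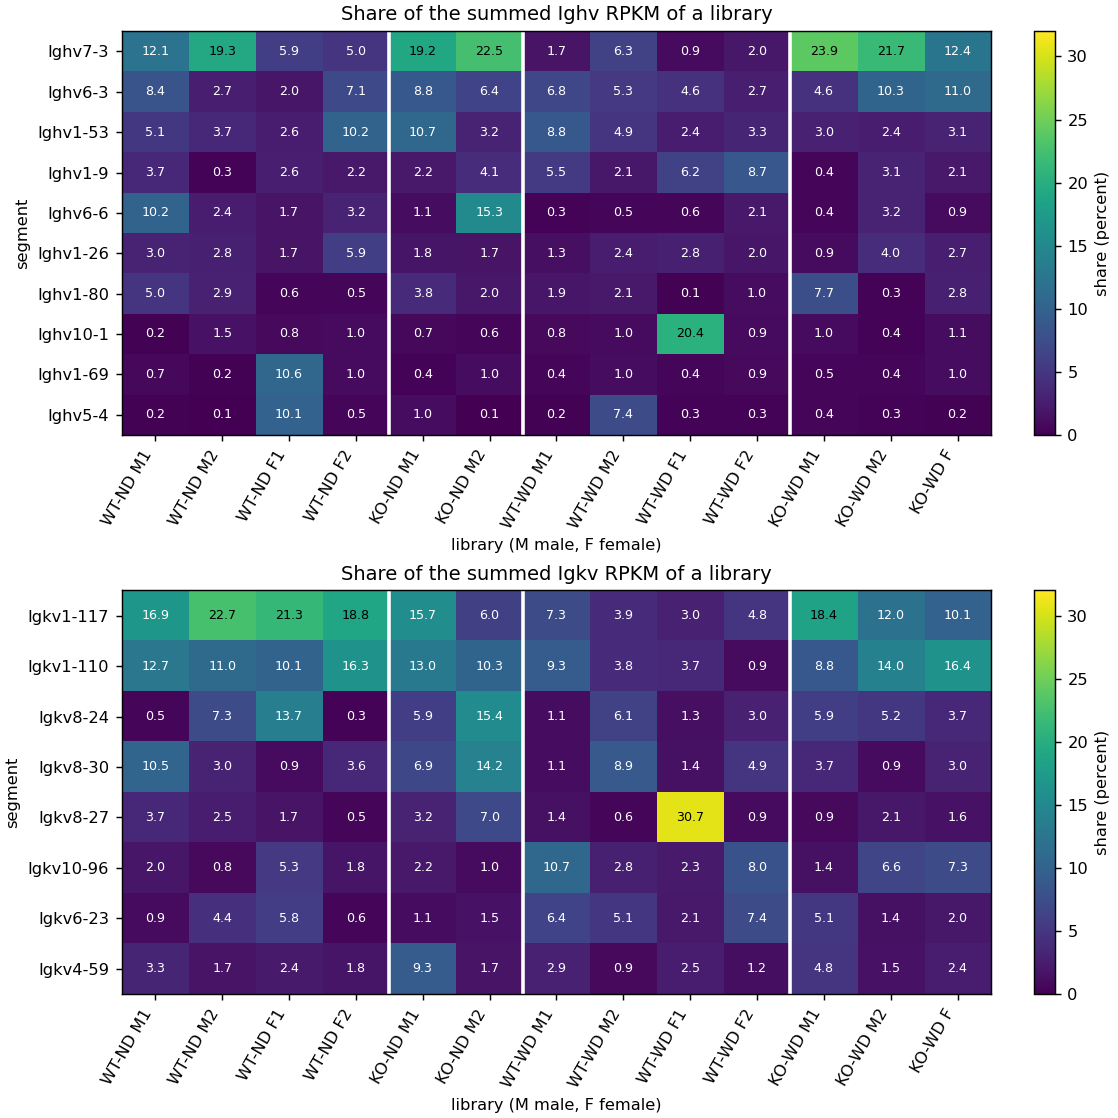
Share of the summed Ighv RPKM (top) and Igkv RPKM (bottom) of each library, in percent, for the 8 segments with the highest mean share and any other segment that led a library; white lines part the 4 groups. Ighv7-3 held 19.2 to 23.9% in the 4 male KO libraries, 12.4% in the average of 2 related female KO-WD columns (5.90% in the library implied by them) and at most 6.34% in WT-WD, Igkv1-117 held 16.9 to 22.7% in WT-ND, and Ighv10-1 (20.4%) and Igkv8-27 (30.7%) stood out in WT-WD F1.

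Ighv7-3 had the highest mean share of all Ighv segments, 11.8%, and led 7 of the 13 libraries, including the averaged KO-WD F, where the lead depends on how the female columns are read. Its share was 12.1, 19.3, 5.88 and 4.95% in WT-ND M1, M2, F1 and F2. In KO-ND it was 19.2% in M1 and 22.5% in M2. In WT-WD it was 1.68, 6.34, 0.909 and 2.02% in M1, M2, F1 and F2. In KO-WD it was 23.9% in M1, 21.7% in M2 and 12.4% in F. The 4 WT-WD libraries were thus below all 3 KO-WD libraries and both KO-ND libraries, while WT-ND ran from the WT-WD range up to the KO range, with its males above its females. Among males alone, WT-ND (12.1 and 19.3%) overlapped KO-ND (19.2 and 22.5%), and WT-WD (1.68 and 6.34%) lay below KO-WD (21.7 and 23.9%).

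The female KO-WD value depends on how its columns are read. The share of Ighv7-3 was 15.1% in the first column and 10.0% in the second, and would be 5.90% in the implied library, which is inside the WT-WD range. The first column was led by Ighv7-3, the second by Ighv6-3 with 11.0%, and the implied library would be led by Ighv1-78 with 11.5%. With that library in place of the average, KO-WD and WT-WD no longer separate on Ighv7-3.

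As a level, Ighv7-3 RPKM was 63.97, 194, 12.1 and 30.0 in WT-WD against 993, 363 and 113 in KO-WD. The single KO-WD value inside the WT-WD range was the averaged female. In the limma fit across 19042 genes, the log2 difference KO-WD minus WT-WD was 2.97 ± 1.00 (SE) with an unadjusted p of 0.011 and a limma adjusted p of 1.00, so it did not pass. The difference WT-WD minus WT-ND was -1.76 ± 0.93 (limma adjusted p = 0.38), and KO-ND minus WT-ND was 2.21 ± 1.13 (limma adjusted p = 0.89). The genotype by diet term for Ighv7-3 was 0.76 ± 1.51 (limma adjusted p = 1.00).

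The libraries not led by Ighv7-3 had different leaders. Ighv1-69 (10.6%) led WT-ND F1, Ighv1-53 led WT-ND F2 (10.2%) and WT-WD M1 (8.79%), Ighv5-4 (7.43%) led WT-WD M2, Ighv10-1 (20.4%) led WT-WD F1 and Ighv1-9 (8.69%) led WT-WD F2. Ighv6-3, second by mean share (6.21%), held 1.96 to 11.0% and Ighv1-53, the next (4.87%), 2.38 to 10.7%, both in every library and with ranges that overlapped between groups. Ighv1-26 and Ighv1-80, with mean shares of 2.55 and 2.37%, ran from 0.890 to 5.92% and from 0.128 to 7.72%.

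The 4 segments of the Ighv7 family held 15.3 to 25.7% of the Ighv sum in KO-WD and 1.81 to 6.65% in WT-WD. Without Ighv7-3, the family held 0.315 to 4.86%. The highest values were in KO-ND M1 (4.86%) and in WT-WD F2 (4.34%), where this remainder exceeded Ighv7-3 itself (2.02%). Ighv7-1 made up most of the WT-WD F2 remainder, and without Ighv7-3 and Ighv7-1 the other 2 segments held at most 2.20% in any library. Ighv1, the largest family with 64 segments, held 40.5 to 61.2% in every library, with group means of 48.8 ± 4.91, 47.4 ± 8.18, 55.3 ± 4.54 and 48.6 ± 7.60% in WT-ND, KO-ND, WT-WD and KO-WD and overlap in each comparison. The Ighv6 family, 3 segments led by Ighv6-3, held 9.63 ± 7.14% in WT-ND, 15.9 ± 8.48% in KO-ND, 5.75 ± 1.01% in WT-WD and 10.2 ± 4.58% in KO-WD, with overlap in each comparison. Its member Ighv6-6 held 15.3% in KO-ND M2 and 10.2% in WT-ND M1 but 0.292 to 3.20% elsewhere.

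In the kappa repertoire of WT-ND, Igkv1-117 led all 4 libraries with 16.9, 22.7, 21.3 and 18.8% in M1, M2, F1 and F2. Igkv1-110 added 12.7, 11.0, 10.1 and 16.3%. In WT-WD, Igkv1-117 held 7.34, 3.92, 2.96 and 4.81% and led no library. Igkv1-110 held 9.35, 3.78, 3.74 and 0.949% there. The WT-WD libraries were led by Igkv10-96 in M1 (10.7%) and F2 (8.04%), Igkv8-30 in M2 (8.93%) and Igkv8-27 in F1 (30.7%), so that 3 different segments led 4 libraries. In KO-WD, Igkv1-117 led M1 with 18.4% and Igkv1-110 led M2 with 14.0% and F with 16.4% (14.5 and 18.1% in the female columns alone, led by the same segment, as would be the implied library with 20.6%). Summed, the pair held 29.6, 33.8, 31.4 and 35.0% in WT-ND M1, M2, F1 and F2 and 28.7 and 16.3% in KO-ND M1 and M2. The pair held 16.7, 7.70, 6.69 and 5.76% in WT-WD and 27.2, 26.0 and 26.5% in KO-WD.

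The whole Igkv1 family, 8 segments, sums over both and does not depend on how reads were divided between them. It held 31.4, 35.4, 33.9 and 36.2% in WT-ND M1, M2, F1 and F2. It held 30.9 and 18.1% in KO-ND M1 and M2. In WT-WD it held 19.3, 9.96, 6.91 and 9.53%. In KO-WD it held 28.9, 29.5 and 30.3% in M1, M2 and F. WT-WD lay below WT-ND without overlap (difference -22.8 ± 2.91 percentage points, SE) and below KO-WD without overlap (KO-WD minus WT-WD 18.2 ± 2.74), in males and in females. KO-ND minus WT-ND was -9.77 ± 6.49 points and rested on M2, whose 18.1% lies inside the WT-WD range, while M1 at 30.9% lies next to the lowest WT-ND library at 31.4%. The difference was -3.37 points without KO-ND M2 and -16.2 without M1. The female KO-WD columns gave 31.0% and 29.8% on their own, and the implied library 29.0%, so that this difference did not turn on them. Nearly all of it came from the pair: without Igkv1-117 and Igkv1-110, the family held 0.218 to 3.82% in every library. These families and segments were chosen with the values known, and no p-value is given for a family share.

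**Figure D3:**
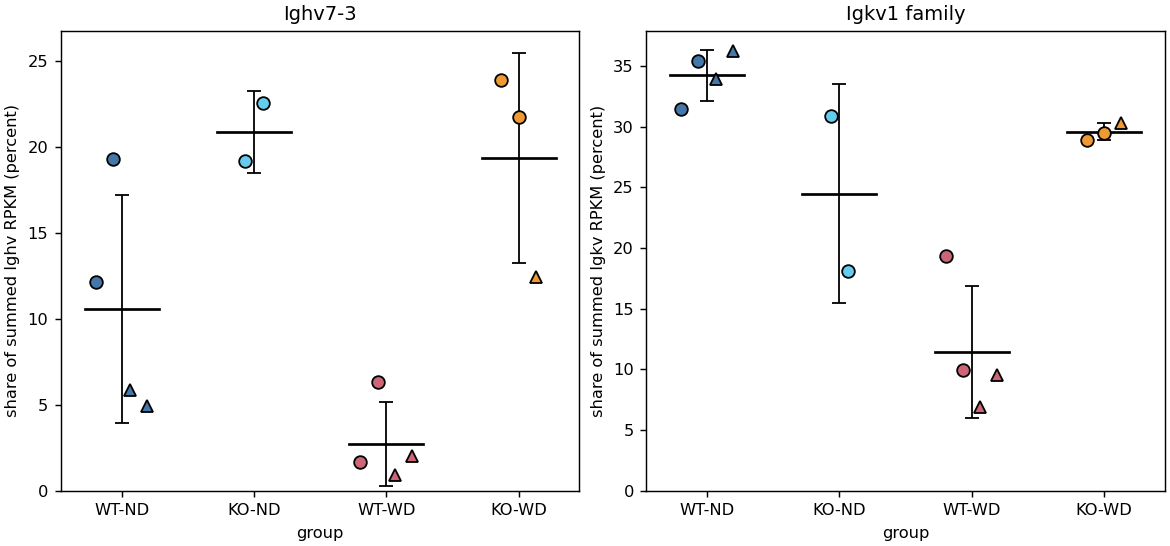
Share of Ighv7-3 in the summed Ighv RPKM (left) and of the Igkv1 family in the summed Igkv RPKM (right), in percent, 1 point per library (circles male, triangles female); lines give the group mean and bars the SD (n = 4, 2, 4 and 3). WT-WD is below KO-WD in both panels, with an Ighv7-3 share of 0.909 to 6.34% against 12.4 to 23.9% and an Igkv1 share of 6.91 to 19.3% against 28.9 to 30.3%; the KO-WD triangle is the average of 2 related columns, and the library implied by them would have an Ighv7-3 share of 5.90% and an Igkv1 share of 29.0%.

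Igkv8-24 and Igkv8-30, with mean shares of 5.34 and 4.85%, were highest in KO-ND M2, at 15.4 and 14.2%. Their lowest shares were 0.348 and 0.908%. Igkv6-23 (mean 3.38%) held 0.560 to 7.39% and Igkv4-59 (mean 2.79%) 0.855 to 9.31%, the latter in KO-ND M1.

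On the level scale these kappa differences did not pass the threshold. Igkv1-117 RPKM was 468, 954, 615 and 307 in WT-ND against 366, 136, 59.1 and 111 in WT-WD, with 366 inside the WT-ND range. The log2 difference was -1.52 ± 0.63 (limma adjusted p = 0.27). Igkv1-110 differed by -1.26 ± 0.63 (limma adjusted p = 0.35) in the same comparison, by 1.45 ± 0.68 between KO-WD and WT-WD (limma adjusted p = 1.00), and Igkv1-117 by 1.07 ± 0.68 between these 2 groups (limma adjusted p = 1.00). Other large kappa families varied widely within groups. Igkv8, 9 segments, held 14.2 ± 5.20%, 27.8 ± 15.6%, 18.8 ± 12.7% and 11.5 ± 2.38% in WT-ND, KO-ND, WT-WD and KO-WD, and Igkv4, the family with the most kappa segments (30), held 12.1 ± 5.56, 18.1 ± 11.5, 18.7 ± 4.38 and 12.9 ± 5.12%. Igkv4 overlapped in each comparison, and Igkv8 in each but KO-WD (9.50 to 14.2%) against KO-ND (16.7 and 38.8%).

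High shares in a single library were common, and whether they reflect expanded cells was not tested. Of 24 Ighv segments that reached 5% of their locus in some library, 16 did so in exactly 1 library, and of 21 such Igkv segments, 13 did. The clearest was the female WT-WD library F1, where Ighv10-1 held 20.4% and Igkv8-27 30.7% of their loci. The other 12 libraries gave Ighv10-1 0.237 to 1.53% and Igkv8-27 0.477 to 7.02%. As implied reads, Ighv10-1 took 984 of 4807 Ighv reads in that library, 20.5% with a 95% Wilson interval of 19.4 to 21.6%, and Igkv8-27 took 1894 of 7007 Igkv reads, 27.0% with an interval of 26.0 to 28.1% (intervals cover counting error only).

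Other segments were high in 1 or 2 libraries of different groups. Ighv5-4 held 10.1% in WT-ND F1 and 7.43% in WT-WD M2 but 1.00% or less elsewhere, and Ighv1-69 held 10.6% in WT-ND F1 and 0.211 to 1.05% elsewhere. Igkv14-126 reached 6.25% in KO-ND M1 and at most 0.526% elsewhere, 125 times its median share of all libraries. Igkv2-112 held 9.73% in WT-ND M2 (92.7 times its median) and Igkv12-89 2.81% in WT-ND F1 (75.1 times). The 3 Ighv segments with the largest such ratio, Ighv1-47, Ighv6-5 and Ighv2-9, never exceeded 0.393, 0.858 and 2.77%, and for Ighv1-47 and Ighv6-5 the median share was close to 0. Outside the V segments, KO-WD M1 had Ighg1, the IgG1 constant region, at an RPKM of 254, against 0.686 to 8.24 in the other 12 libraries.

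Diversity was measured as the effective number of segments, the exponential of the Shannon entropy of the shares, which is the number of equally used segments that would give the same entropy. For Ighv it was 37.7, 36.8, 40.0 and 36.6 in WT-ND M1, M2, F1 and F2. It was 33.1 and 25.8 in KO-ND M1 and M2, 47.2, 50.7, 36.2 and 51.8 in WT-WD M1, M2, F1 and F2, and 34.0, 36.7 and 45.0 in KO-WD M1, M2 and F. Both KO-ND libraries were below all WT-ND libraries, and 3 of 4 WT-WD libraries were above all of them, the exception being F1 with its large Ighv10-1 share. The mean differences were 8.67 ± 3.65 (SE) for WT-WD minus WT-ND, -8.32 ± 3.71 for KO-ND minus WT-ND, 9.12 ± 4.92 for KO-WD minus KO-ND and -7.86 ± 4.88 for KO-WD minus WT-WD. Averaging mixes mice and raises the female KO-WD value, since the first column alone gave 39.8, the second 44.3 and the implied library 34.8.

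For Igkv the effective number was 27.5, 23.3, 22.1 and 23.4 in WT-ND and 26.8 and 25.9 in KO-ND. In WT-WD it was 40.6, 45.0, 24.3 and 38.4, and in KO-WD 29.1, 32.7 and 35.4 (30.6 and 35.9 in the female columns alone and 31.3 in the implied library). All 3 KO-WD libraries were above all ND libraries, as were 3 of 4 WT-WD libraries, and F1, led by Igkv8-27, lay inside the WT-ND range. WT-WD minus WT-ND was 13.0 ± 4.63 and KO-WD minus KO-ND 6.09 ± 1.87, while KO-ND minus WT-ND was 2.23 ± 1.25 and KO-WD minus WT-WD -4.68 ± 4.83.

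**Figure D4:**
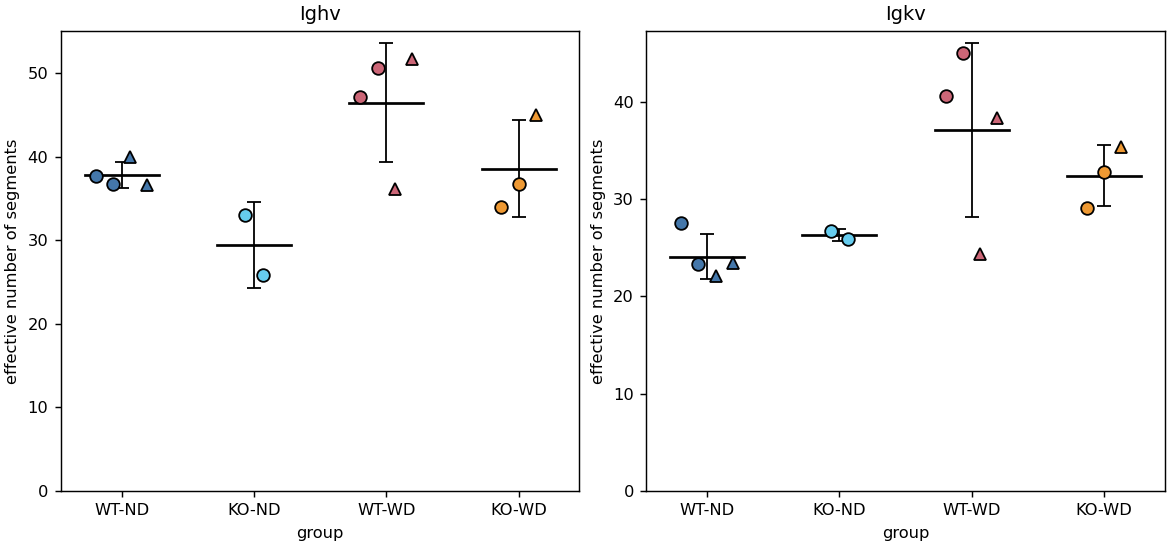
Effective number of Ighv (left) and Igkv (right) segments in each library (circles male, triangles female), with the group mean as a line and the SD as a bar (n = 4, 2, 4 and 3). In Igkv, 3 WT-WD libraries lie at 38.4 to 45.0 and the fourth, F1, at 24.3, near the WT-ND libraries at 22.1 to 27.5.

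Dominance was also measured as the share of the 5 leading segments. For Igkv it was 49.7 to 58.8% in WT-ND, 51.2 and 52.9% in KO-ND, 29.7 to 47.0% in WT-WD and 42.0 to 46.8% in KO-WD, so that no WD library reached an ND library. For Ighv it was 39.9 to 40.8% in WT-ND, 47.2 and 55.6% in KO-ND, 27.6 to 40.6% in WT-WD and 35.3 to 44.0% in KO-WD. In KO-WD F these shares were 42.0 and 35.3%, against 46.6 and 39.8% in the first female column, 40.8 and 36.1% in the second and 43.1 and 42.5% in the implied library (Igkv first), so that the Igkv separation of WD from ND does not turn on the averaging. The share of the leading segment alone overlapped between the groups of each diet comparison, with an Igkv mean of 19.9 ± 2.58% in WT-ND and 14.6 ± 10.8% in WT-WD. Here WT-WD F1 decided the size: the difference was -5.32 percentage points with it and -10.7 without it. Between genotypes on ND, the Igkv leading share in KO-ND (15.4 and 15.7%) lay below WT-ND (16.9 to 22.7%) without overlap. Segments at an RPKM of at least 1 numbered 92.8 ± 10.8 Ighv in WT-ND, 102 ± 13.4 in KO-ND, 92.3 ± 9.71 in WT-WD and 94.3 ± 8.33 in KO-WD. In this order they numbered 79.3 ± 3.86, 86.0 ± 7.07, 85.8 ± 7.09 and 81.7 ± 8.08 Igkv, with overlap in every comparison. The averaged KO-WD F had 85 Ighv and 73 Igkv segments at this floor. The first female column had 81 and 68, the second 83 and 74, and the implied library 72 and 73. A fixed floor depends on the summed level. In an equal number of implied reads, the expected Ighv segments were 103 ± 2.51, 103 ± 2.79, 103 ± 2.61 and 106 ± 4.23. The expected Igkv segments were 86.9 ± 2.28, 89.6 ± 0.296, 92.0 ± 3.26 and 91.9 ± 2.59. Here KO-ND (89.4 and 89.8) lay above WT-ND (83.8 to 88.9) and below KO-WD (89.9 to 94.8).

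Likeness between libraries was measured as the Bray-Curtis distance of the shares, which is 0 for the same shares and 1 where no segment is common. It ran from 0.308 to 0.596 (median 0.469) for Ighv and from 0.282 to 0.664 (median 0.448) for Igkv. The closest pair was KO-ND M2 and KO-WD M2 for Ighv, and KO-WD M2 and KO-WD F for Igkv, where the distance of 0.282 was 0.293 and 0.296 for the single female columns and 0.411 for the implied library. WT-WD F1 was in the most distant pair of both loci, with WT-ND F1 for Ighv and with WT-ND M2 for Igkv. The mean distance between WT-WD and WT-ND libraries was 1.19 times that within the groups for Igkv and 1.02 times for Ighv. The corresponding ratios were 1.09 and 0.959 for KO-WD against KO-ND, 1.03 and 0.938 for KO-ND against WT-ND and 1.01 and 1.09 for KO-WD against WT-WD, again Igkv first. Libraries of a group were thus mostly nearly as unlike each other as libraries of different groups. The largest departure was Igkv in WT-WD against WT-ND, with a mean distance of 0.457 within the groups and 0.546 between them.

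**Figure D5:**
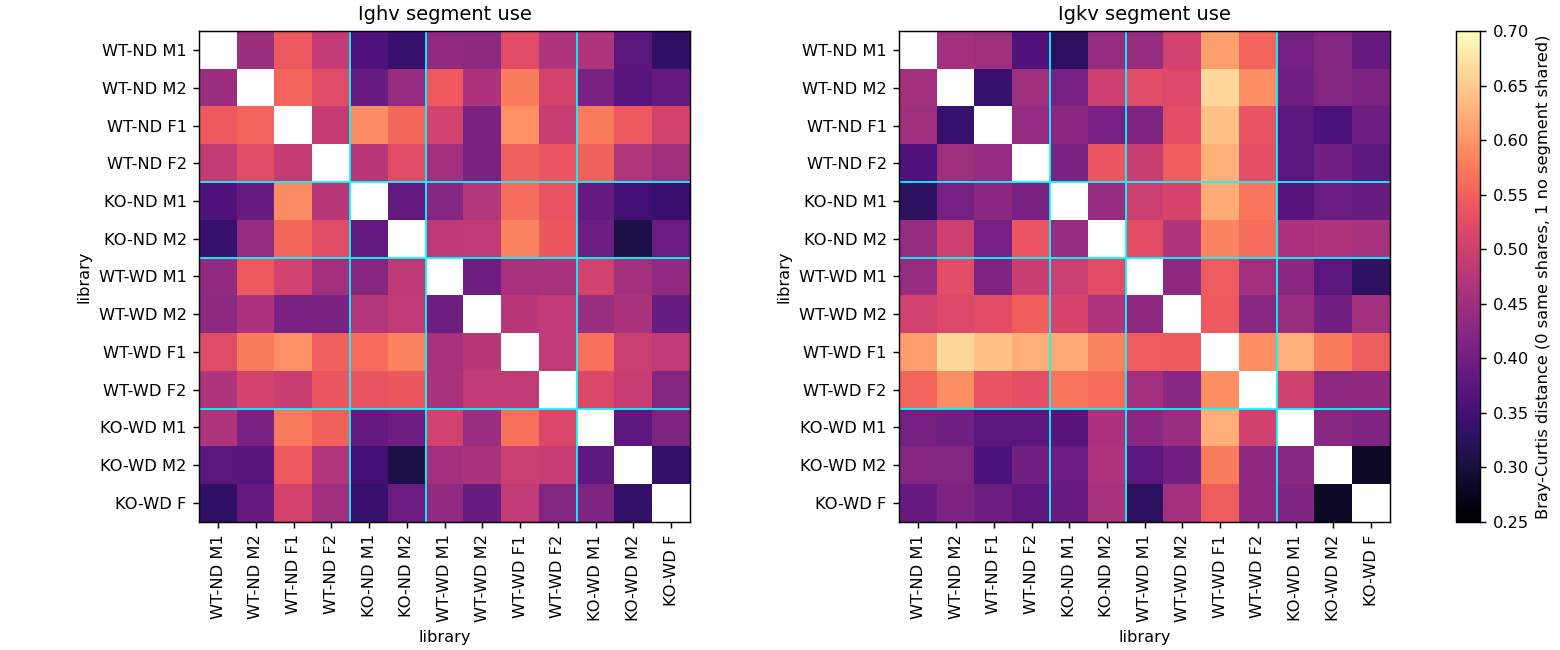
Bray-Curtis distance between the segment shares of each pair of libraries for Ighv (left) and Igkv (right); lines part the 4 groups and the diagonal is left blank. Distances run from 0.308 to 0.596 for Ighv and from 0.282 to 0.664 for Igkv, and the light row and column in the Igkv panel belong to WT-WD F1.

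Segment by segment, no level passed the threshold, which asked for a fold change of 2 or more together with a limma adjusted p under 0.01. In WT-WD against WT-ND, 0 of 214 segments passed, where 0.00525% of all genes did. At an unadjusted p under 0.05, 29 segments (13.6%) were higher and 3 (1.40%) lower, against 7.51% and 8.08% of all genes. The excess of higher segments was in Igkv, with 21 of 100 against 8 of 114 Ighv segments. The median log2 difference of the segments was 0.68 against 0.03 over all genes. Levels were divided by library factors of 1.16 to 1.36 in WT-ND and 0.691 to 1.02 in WT-WD, which raises WT-WD against WT-ND. These level differences therefore depend on the scaling. The 3 smallest p belonged to Igkv3-5 with a log2 difference of 3.26 ± 0.61 (SE; limma adjusted p = 0.067), Ighv1-54 with 2.18 ± 0.57 (0.13) and Igkv4-53 with 2.70 ± 0.73 (0.13). Igkv3-5 RPKM was 5.97, 6.54, 7.08 and 2.72 in WT-ND and 22.2, 66.9, 44.0 and 39.6 in WT-WD, without overlap, but a segment that matches 98.2% of its last 280 bases, Igkv3-10, could share its reads.

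In KO-WD against KO-ND, 0 segments passed, as in all genes (0%), and 3 were higher and 9 lower at an unadjusted p under 0.05, 1.40% and 4.21% against 2.71% and 2.94% of all genes. In KO-ND against WT-ND, 0 passed (0% of all genes), and 23 segments (10.7%) were higher and 0 lower at an unadjusted p under 0.05, against 2.15% and 2.67%. The 2 KO-ND libraries are both male, while WT-ND and KO-WD hold both sexes. Summed Ighv RPKM was higher in WT-ND males than in WT-ND females, so these counts mix sex with genotype or diet. Among males alone, summed Ighv RPKM was 2817 and 6711 in KO-ND against 2685 and 4329 in WT-ND. Ighv1-59, Ighv1-50 and Ighv2-4 had the smallest p in both comparisons, which share the 2 KO-ND libraries. Ighv1-59 RPKM was 80.9 and 55.2 in KO-ND, 3.22 to 18.9 in WT-ND and 6.98 to 9.77 in KO-WD, so that KO-ND overlapped neither. Its log2 differences were 2.72 ± 0.54 for KO-ND minus WT-ND (limma adjusted p = 0.89) and -2.61 ± 0.57 for KO-WD minus KO-ND (limma adjusted p = 0.63). Ighv1-50 differed by 2.27 ± 0.47 and -1.89 ± 0.50 in the same order, and Ighv2-4 by 2.97 ± 0.65 and -2.24 ± 0.68. All 3 have a copy that matches at least 97% of the last 280 bases.

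In KO-WD against WT-WD, 0 segments passed, against 0.0105% of all genes, and 2 (0.935%) were higher and 12 (5.61%) lower at an unadjusted p under 0.05, against 1.41% and 1.21% of all genes. Ighv7-3 was among the 3 smallest p there, as given above, with Igkv8-21 (-2.43 ± 0.74) and Igkv19-93 (-2.78 ± 0.95), both with a limma adjusted p of 1.00. For the genotype by diet interaction, 0 passed (0% of all genes), and 0 were higher and 27 (12.6%) lower at an unadjusted p under 0.05, against 0.62% and 0.814% of all genes. The median interaction over the segments was -0.97 log2 units, against -0.03 over all genes. This term rests on the male-only KO-ND libraries too, so that sex was not separated in it. Ighv1-59 (-3.36 ± 0.72), Ighv1-50 (-2.80 ± 0.63) and Ighv1-9 (-3.83 ± 1.00) had the smallest p, each with a limma adjusted p of 1.00. The segments share the libraries, whose summed V level varied several-fold, so these counts are not counts of independent changes. Their median residual SD was 1.30 log2 units, against 0.40 over all genes tested.

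None of the tested genes of the fixed lists (antibody constant, plasma cell, B cell, germinal centre, receptor assembly and IgA transport) passed the threshold in any comparison. Of 13 antibody constant genes, 12 were listed and tested, and 0 passed in each of the 5 contrasts. At an unadjusted p under 0.05, 2 of them were higher in WT-WD against WT-ND (7.51% of all genes were), 3 in KO-ND against WT-ND (2.15% of all genes), 1 in KO-WD against WT-WD (1.41% of all genes) and none in the other 2 contrasts, and none was lower in any contrast. Jchain, which joins IgA into dimers, differed by 1.66 ± 0.47 between WT-WD and WT-ND (limma adjusted p = 0.14) and by 1.26 ± 0.58 between KO-ND and WT-ND (limma adjusted p = 0.89). Igha and the lambda constant gene Iglc3 differed by 1.33 ± 0.60 and 2.35 ± 0.81 between KO-ND and WT-ND (both limma adjusted p = 0.89). The KO-ND libraries are all male and WT-ND holds both sexes, so these differences mix genotype and sex. Among males alone, Igha RPKM was 6008 and 9465 in KO-ND against 2991 and 5269 in WT-ND. Jchain RPKM overlapped there, at 245 and 488 against 180 and 308. The part of sex was not tested. The 10 plasma cell genes, such as Mzb1 and Xbp1 of the secretory machinery, had a median log2 difference of 0.47 in WT-WD against WT-ND and 0.35 in KO-ND against WT-ND, with 1 higher at an unadjusted p under 0.05 in each (Derl3, limma adjusted p = 0.20 and 0.89) and none in the other contrasts. Of the 10 B cell genes, 8 could be tested, with a median of 0.41 in WT-WD against WT-ND and none past that level. In KO-WD against KO-ND their median was 1.19 and 2 were higher at an unadjusted p under 0.05, where 2.71% of all genes were, while the V segments had a median of -0.35 there. Ms4a1, which encodes CD20, had the smallest p of them with a difference of 1.92 ± 0.75 (limma adjusted p = 0.85). Among 8 germinal centre and diversification genes, 5 were tested and 0 passed at either level in any contrast. Of 7 receptor assembly genes, 2 were listed, Rag1 at 0.0574 RPKM or less and Vpreb3, and Vpreb3 did not pass. Pigr, which carries IgA across the epithelium, had an RPKM of 209 to 1328 and a log2 difference below 0 in all 4 group comparisons, none past an unadjusted p of 0.05.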

How the data were processed

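The authors read RNA of 16 terminal ileum samples on an Ion Proton sequencer. Reads were checked with FASTQC, mapped to GRCm38 with STAR in Partek Flow and quantified over Ensembl transcripts. The values the authors deposited are RPKM per transcript, a unit named in the study's supplement. The deposited table is called raw counts but its values are not whole, and the nearly equal column sums on ND would also fit a TPM-type total, so the exact scaling is uncertain; shares within a library do not depend on it. They were summed per gene here. RPKM times transcript length was a whole number of steps, each taken as 1 read, in 86.9 to 88.2% of values (tolerance 0.02 reads), which gave the implied depth. Libraries were scaled by an unweighted trimmed mean of log ratios (30% of ratios and 5% of levels trimmed at each end), and log2(scaled RPKM + 0.5) of 19042 genes (1 RPKM or more in 2 or more libraries) was fitted with limma 3.58.1 in R 4.3.3, all 4 groups in 1 model with the variance prior following the mean level. P-values were adjusted by Benjamini-Hochberg across the genes tested, and fold changes on this scale understate changes of low genes. The fit was tested on simulated data. Shares, diversity and correlations were computed with numpy 2.4.6 and scipy 1.17.1.

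Segments, lists and comparisons were chosen with earlier results of these data known. Sums, diversity, family shares and likeness are scores over the chosen segments, so neither their group differences nor their correlations carry a p-value; the permutation tests planned for them are not reported. Named are the 8 Ighv and 8 Igkv segments of highest mean share, the leading segments of each library, the 3 segments of smallest p per contrast, the 3 per locus with the largest ratio of highest to median share, and genes of fixed lists; the Igkv1 and Ighv7 families, the B cell markers of WT-ND F1 and the Ighg1 value were singled out after their values were seen. The female KO-ND columns (0.75 and 0.625 parts of M1 with 0.25 and 0.375 parts of M2) were left out. In 99.2% of segment transcripts, 2 times the second female KO-WD column minus the first had at most 6 digits, as the unmixed columns do. Lengths, coordinates and sequences were taken from GENCODE M21. Nothing in the labels says that libraries are separate animals, so p-values measure the spread between these samples.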

Additional observations from a re-analysis of the deposited data

Results flagged for a closer look

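In the groups of 4 libraries (WT-ND and WT-WD), a library was looked for that lies far from the other 3, by the ratio of its gap to the whole range. Of 94 such searches, 14 found 1. Chance gives about 1 in 20 for measures not chosen by their values, but 8 of the 14 are shares of segments named because they led a library or had a high ratio of highest to median share, so that this rate does not apply to them.

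In WT-WD F1, the share of the leading segment was 20.4% for Ighv (next 8.79%) and 30.7% for Igkv (next 10.7%), and the segments concerned, Ighv10-1 at 20.4% (next 0.974%) and Igkv8-27 at 30.7% (next 1.41%), stood apart with it. In WT-ND F1, Ighv1-69 held 10.6% (next 0.974%) and Ighv5-4 10.1% (next 0.466%), and Ighm RPKM was 131 (next 28.3) and Cd79a RPKM 36.2 (next 5.91). In WT-ND M2, Ighv2-9 held 2.77% (next 0.0171%), Igkv2-112 9.73% (next 0.260%), and 85 Igkv segments reached an RPKM of at least 1 (next 78). In WT-WD, Ighv2-9 held 2.01% in M1 (next 0.0787%) and Ighv5-4 7.43% in M2 (next 0.346%). The share of the 5 leading Ighv segments was lowest in WT-ND F2, at 39.9% (next 40.7%), a small gap within a narrow range.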

How the results depend on the processing

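No segment passed the threshold in any contrast, and this count stayed at 0 under no, RLE and upper quartile scaling, pseudocounts of 0.1 and 1, both filters, sex as a covariate, fits of the 2 groups alone, males alone, either female KO-WD column alone, the resolved female libraries (chosen after seeing the data), an adjusted p under 0.05 with no minimum fold, and with each library left out (0 to 0). With all 16 columns as labelled, 1 segment passed in KO-WD against KO-ND (Ighv1-59), a setting that counts weighted means as libraries. At an unadjusted p under 0.01 and a fold of at least 2, the counts were 13, 3, 9 and 1 in WT-WD against WT-ND, KO-WD against KO-ND, KO-ND against WT-ND and KO-WD against WT-WD, and 8 for the interaction. The share of all genes at this cut is not given, so these counts cannot be set against a background. With the replicate block the count was 0 in each contrast; same-numbered libraries deviated together with correlations of -0.15 to 0.57, so the numbers were not taken as pairs.

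Of 1940 group differences in sums, diversity and shares recomputed under an alternative, 69 took the other sign, in 32 differences, each smaller than the spread between libraries to begin with. Among them are the Ighv7-3 share in KO-WD minus KO-ND, which was -1.51 percentage points and became 1.95 without the female KO-WD average, and the Igkv1 share in the same comparison, which was 5.10 and became -1.30 without KO-ND M2. They also include the summed Ighv level in WT-WD minus WT-ND, which was 0.33 log2 units scaled and -0.14 as deposited. Leaving out a library moved no difference by more than the spread between libraries. With males alone, the leading Ighv share differed by -7.60 percentage points for WT-WD minus WT-ND and 14.7 for KO-WD minus WT-WD, the Ighv5 share by 7.36 and -8.08 in these comparisons, the Ighv7 share by 5.86 for KO-ND minus WT-ND, the Igkv6 share by 10.8 for WT-WD minus WT-ND and the Igkv4 share by -0.789 for KO-WD minus WT-WD. Males alone also gave -11.9 for the Igkv effective number (KO-WD minus WT-WD) and a likeness ratio of 1.11 for Ighv (WT-WD against WT-ND). With all 16 columns, which repeat mixed libraries, the Igkv effective number differed by 3.61 for KO-WD minus KO-ND and 4.38 for KO-ND minus WT-ND, the leading Igkv share by 2.62 and -6.32, and the likeness ratios in these comparisons were 1.26 and 1.25 for Ighv and 1.40 and 1.28 for Igkv. The inverse Simpson index gave 2.81 for Igkv in KO-WD minus KO-ND. The causes were not tested. The implied depth of 3974 to 19072 Ighv and 4824 to 20753 Igkv reads per library limits the rarest segments.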
